A study of Zea mays with 2 samples.

Results

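High-level transcripts of the maize endosperm were examined in kernels of the defective kernel mutant dek37 and in wild-type (WT) kernels, with endosperm of both taken 18 days after pollination. Each genotype is represented by 1 RNA-seq library. The study set the transcriptome of the mutant endosperm against that of the wild type. The deposited tables list 56848 entries by chromosomal position alone, with a level in RPKM (reads per kilobase of sequence, relative to the library's reads). An entry belonged to the set described here when its WT level was at least 300 and below 1000 RPKM. The members were therefore chosen by the WT values, and 263 entries on 258 loci qualified, which is 0.463% of the table. The allele of dek37, the genetic background and the number of kernels or plants behind a library are not stated in the sources used here.

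As background, the endosperm is the storage tissue of the cereal kernel. In mid filling its starchy cells devote much of their mRNA to storage proteins and to starch synthesis, and the aleurone and the transfer cells next to the maternal tissue carry programmes of their own. A small group of storage protein genes dominates such a library, and a broader layer of abundant transcripts, often from the machinery of translation and metabolism, lies below it. Kernels of dek mutants fill poorly. The DEK37 protein belongs to the pentatricopeptide repeat family, whose members bind RNA in plant organelles, and has been linked to intron splicing in mitochondria.

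The entries carry no gene names, and the genome build behind their positions is not stated in the sources used here. Which of them encode storage proteins, enzymes or ribosomal proteins was not determined, the tissue label could not be checked against marker genes, and exons, introns and UTRs were not assigned. Positions below are those of the deposited files with starts counted from 1. With 1 library per genotype there is no replicate error, no p-value can be given, and every difference is one between 2 libraries. A lower share of a transcript in such a bulk library could mean fewer cells of a type or less of the transcript per cell, which cannot be told apart. Depth, recovered from steps in the deposited values, was 19106174 reads for dek37 and 18139532 reads for WT.

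As deposited, most of these abundant transcripts differed little between the libraries. The dek37 levels ran from 10.3 to 3248 RPKM with a median of 449 RPKM, and the WT levels ran from 300.2 to 959 RPKM with a median of 423 RPKM. The quartiles of the members were 337 and 634 RPKM in dek37 and 350 and 552 RPKM in WT. The WT range is narrow because the selection fixed it, whereas the dek37 range was free. On the log2(RPKM + 1) scale, the median difference of dek37 minus WT was 0.12, which is a factor of 1.09, with an SD over entries of 0.920 and quartiles of -0.33 and 0.44. A difference of less than 0.5 in either direction was found for 155 of the 263 members (58.9%), against 51.5% of the 17017 entries that reached 10 RPKM in the higher library. After the rescaling described next, the order was the other way round, with 60.5% of the members and 64.0% of all tested entries within 0.5.

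**Figure D1:**
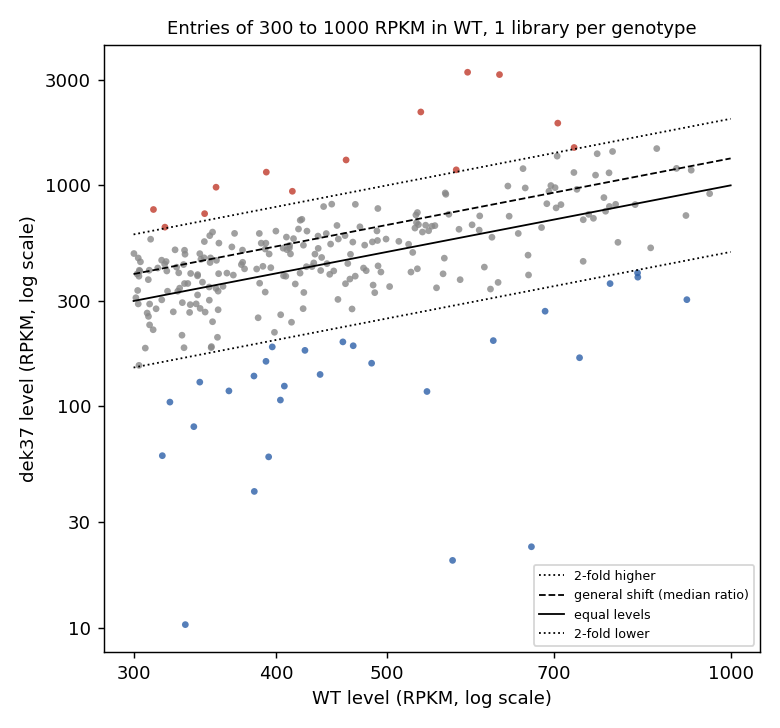
Level of each of the 263 members in dek37 (vertical axis, RPKM, log scale) against its level in WT (horizontal axis, RPKM, log scale), 1 point per entry. Red points are at least 2-fold higher in dek37 and blue points at least 2-fold lower, the solid line marks equal levels, the dashed line the median ratio of 1.32 and the dotted lines 2-fold. The largest departures lie below the lines, down to 10.3 RPKM in dek37.

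The class stood below the general shift of the table, as did the lower classes set by the WT level, by less. Over the same 17017 entries, the median dek37 to WT ratio was 1.32, or 0.41 in log2. After every dek37 value was divided by that ratio, the median difference of the members became -0.28, with quartiles of -0.73 and 0.04. The rescaled medians of entries at 10 to 30, 30 to 100 and 100 to 300 RPKM in WT were -0.09, -0.14 and -0.11. As deposited, 150 members were higher in dek37 by any amount (57.0%), against a background of 77.3% of all tested entries. That background, here and below, includes entries that reached 10 RPKM in dek37 alone, so it is not like for like with members chosen on WT. In classes of 10 to 30, 30 to 100 and 100 to 300 RPKM in WT, 73.2%, 70.8% and 70.3% were higher. After rescaling, 74 were higher (28.1%), against 50% of all tested entries, a share that the rescaling itself sets. Rescaling turned 76 members from higher to lower. Which baseline is right was not tested, so the direction of a member whose ratio lies between 1 and 1.32 depends on it.

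Large changes leaned toward lower levels in the mutant. As deposited, 28 members (10.6%) were at least 2-fold lower in dek37, against 3.07% of all tested entries, and 13 members (4.94%) were at least 2-fold higher, against 14.8%. In classes of 10 to 30, 30 to 100 and 100 to 300 RPKM in WT, the higher shares were 8.15%, 7.29% and 6.68%. The lower shares of those classes were 2.97%, 3.63% and 6.28%. After rescaling, 48 members (18.3%) were at least 2-fold lower, against 5.91%, and 7 members (2.66%) were at least 2-fold higher, against 7.27%. At 4-fold, 9 members (3.42%) were lower and 3 (1.14%) higher as deposited, beside backgrounds of 0.729% and 2.59%. The rescaled values gave 16 lower (6.08%) and 1 higher (0.380%) at 4-fold, beside 1.24% and 1.41%. At 1.5-fold, 48 members (18.3%) were lower and 41 (15.6%) higher as deposited, with backgrounds of 6.31% and 34.8%. The rescaled values gave 83 lower (31.6%) and 13 higher (4.94%) at 1.5-fold, with backgrounds of 14.1% and 15.7%. Because the WT level both picked the members and enters their difference, these shares describe the set and are no test of direction. The backgrounds at every threshold include entries that reached 10 RPKM in dek37 alone, which the choice of members does not allow.

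**Figure D2:**
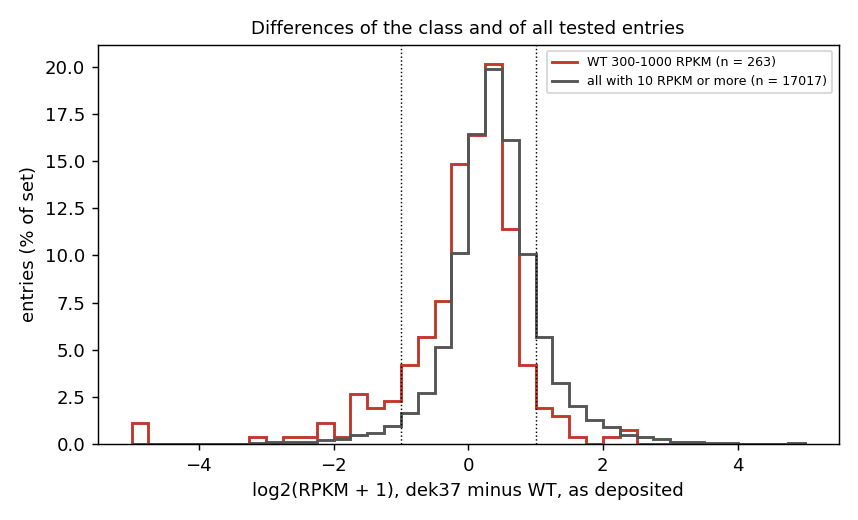
Distribution of the log2(RPKM + 1) difference, dek37 minus WT as deposited (horizontal axis), as percent of entries per bin of width 0.25 (vertical axis), for the 263 members (red) and for all 17017 entries with 10 RPKM or more in the higher library (grey). Values beyond 5 in size are drawn in the end bins and dotted lines mark 2-fold. The members have the larger share in the lower tail, with 10.6% of entries at least 2-fold lower against 3.07%.

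How far the choice of library shaped the result was seen by picking the same range of levels elsewhere. When entries were taken by their dek37 level instead, 382 lay between 300 and 1000 RPKM. Their median difference was 0.43 as deposited, and 58 of them (15.2%) were at least 2-fold higher and 20 (5.24%) at least 2-fold lower. Taken by the geometric mean of both libraries, 289 entries qualified, with a median of 0.28, 21 at least 2-fold higher (7.27%) and 18 at least 2-fold lower (6.23%). The median thus followed the library used for the choice, and after rescaling it was -0.28 by WT, -0.13 by the geometric mean and 0.02 by dek37. The share of 2-fold lower entries was above the 3.07% background under each of the 3 choices as deposited, and above the 5.91% background after rescaling, with 18.3% by WT, 10.7% by the geometric mean and 7.59% by dek37. By dek37 the share of 2-fold higher entries was also slightly above its background, with 15.2% against 14.8% as deposited. After rescaling it was 8.38% by dek37, against 7.27%. By WT and by the geometric mean it was below background, with 4.94% and 7.27% as deposited and 2.66% and 3.81% rescaled. No test of an excess on either side was possible with 1 library a genotype.

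The class lay between the moderate and the dominant transcripts of the endosperm in this respect. In classes set by the WT level, 6.28% of the 988 entries of 100 to 300 RPKM were at least 2-fold lower in dek37, then 10.6% of the 263 members, 28.1% of the 57 entries of 1000 to 3000 RPKM and 79.4% of the 34 entries of 3000 RPKM or more. In classes set by the dek37 level the corresponding shares were 1.79%, 5.24%, 13.1% and 62.1%, so the order was the same whichever library set the classes. After rescaling the shares were 11.03%, 18.3%, 43.9% and 91.2% by WT and 4.39%, 7.59%, 27.9% and 69.0% by dek37. The shares of 2-fold higher entries followed no such order. By the dek37 level they were 17.3%, 15.2%, 14.8% and 27.6%, and by the WT level they were 6.68%, 4.94%, 10.5% and 0%. Within the members, medians at 300 to 400, 400 to 500, 500 to 700 and 700 to 1000 RPKM in WT showed no trend. They were 0.13, 0.07, 0.16 and 0.05. The shares at least 2-fold lower as deposited were 10%, 10.1%, 9.80% and 15.2%, the last being 5 of 33.

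**Figure D3:**
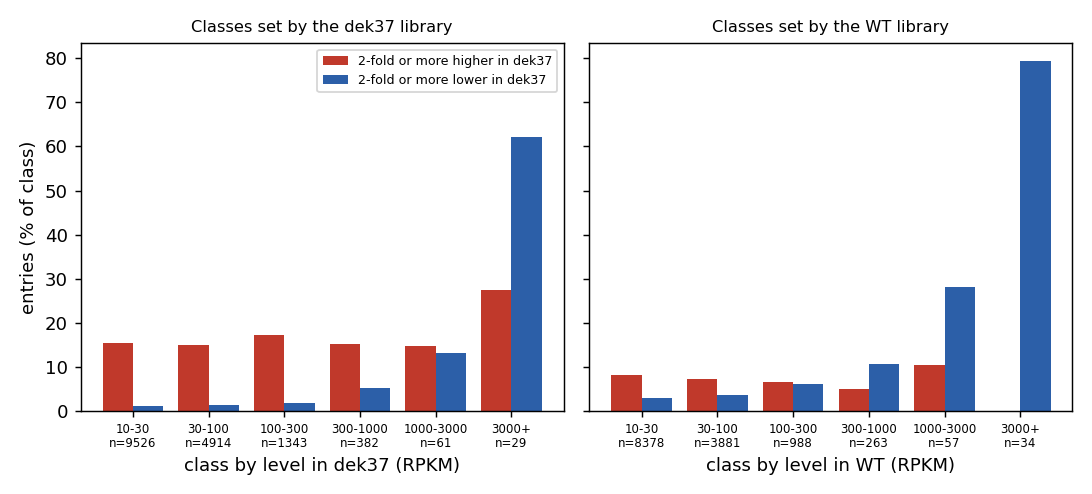
Percent of entries (vertical axis) at least 2-fold higher (red) or lower (blue) in dek37, as deposited, in classes of level (horizontal axis, RPKM, with the number of entries). The left panel sets the classes by the dek37 library and the right panel by the WT library; in both, the blue bars grow with level, and the 300 to 1000 RPKM class reads 5.24% on the left and 10.6% on the right.

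Most members kept their class in dek37, as deposited and after rescaling. In dek37, 192 members stayed between 300 and 1000 RPKM, 53 were below 300 RPKM and 18 were at 1000 RPKM or more. After rescaling, 159 stayed, 95 were below and 9 above. The 192 shared entries were 73.0% of the WT class and 50.3% of the 382 entries of the dek37 class. Of those 382 dek37 entries, 169 had been below 300 RPKM in WT and 21 at 1000 RPKM or more. The same counts were not taken for other level classes, so no background stands beside them. Crossing a bound often needed little change, as 29 of the 53 that went below 300 RPKM and 10 of the 18 that went above 1000 RPKM moved by less than 2-fold. A loss to below 100 RPKM was seen for 7 members.

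The entries next to each bound are given by their values, and they are too few to show or exclude a step. The lowest members had 492 and 310 RPKM in dek37 against 300.2 and 301 RPKM in WT, and the nearest entries outside had 334 and 394 RPKM in dek37 against 299.2 and 299.0 RPKM in WT. At the upper bound, the last members had 917 and 1171 RPKM in dek37 against 959 and 924 RPKM in WT. The first entries outside had 1040 and 724 RPKM in dek37 against 1003 and 1036 RPKM in WT.

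The class held a larger part of the summed RPKM in the mutant. The summed level of the members was 141234 RPKM in dek37 and 124591 RPKM in WT, which is 11.6% of the summed RPKM in dek37 and 9.09% in WT. The ratio of the members' sums was 1.13 as deposited and 0.856 after rescaling. The total over all entries was smaller in dek37, at 1215482 RPKM against 1370896 RPKM in WT. Over all entries but the 50 most abundant, the dek37 to WT ratio of the sums was 1.24, above that of the members. The gains of the higher members came to 34494 RPKM and the losses of the lower members to 17852 RPKM. The 3 members with the largest gain in RPKM accounted for 6813 RPKM, or 40.9% of the net gain. Without them the sums were 132669 RPKM in dek37 and 122840 RPKM in WT.

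The 13 members at least 2-fold higher lay on 8 chromosomes, with levels of 647 to 3248 RPKM in dek37 and 312 to 729 RPKM in WT and a median difference of 1.44. The largest increase was at chromosome 8, 171565757 to 171566487, a locus of 731 bp with a single entry, which had 3248 RPKM in dek37 and 588 RPKM in WT. The ratio of dek37 to WT was 5.52 (counting interval 5.25 to 5.81), and the log2 difference was 2.46 as deposited and 2.06 after rescaling. In order of level this entry was number 27 of the dek37 library and number 147 of the WT library. Within 100 kb on either side, 9 other entries reached 10 RPKM, with differences from -0.28 to 1.59 and a median of 0.71.

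The second largest increase was at chromosome 10, 101520598 to 101521474, a locus of 877 bp, with 3169 RPKM in dek37 and 627 RPKM in WT. Its ratio was 5.05 (counting interval 4.88 to 5.23), and it ranked number 29 in dek37 and number 138 in WT. It stood alone, since no other entry within 100 kb reached 10 RPKM. Another member, on chromosome 2, was also 4-fold higher, with 2147 RPKM in dek37 and 535 RPKM in WT. After rescaling, the chromosome 8 member was the 1 that stayed at least 4-fold higher.

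The 28 members at least 2-fold lower lay on 26 loci of 9 chromosomes, with levels of 10.3 to 402 RPKM in dek37 and 318 to 916 RPKM in WT and a median difference of -1.62. The largest decrease was at chromosome 9, 20665757 to 20666996, with 10.3 RPKM in dek37 (68 reads) and 333 RPKM in WT (2084 reads). The WT level was 32.3 times that of dek37 (counting interval 23.0 to 46.9). In order of level the entry was number 15960 in dek37 and number 309 in WT. Read numbers are the smallest that fit the deposited values.

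A neighbour of that locus was lower as well. At chromosome 9, 20693835 to 20695096, within a stretch of 29.3 kb that spans both loci, a second member had 166 RPKM in dek37 and 737 RPKM in WT. The WT level was 4.44 times that of dek37 (counting interval 4.04 to 4.88). The other entry of this locus, outside the class, had 59.5 RPKM in dek37 and 213 RPKM in WT. The remaining 5 entries within 100 kb that reached 10 RPKM had 14.95 to 27.1 RPKM in dek37 and 9.74 to 28.3 RPKM in WT, with differences from -0.53 to 0.68. Whether both loci are copies that share reads was not determined.

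The second largest decrease was at chromosome 4, 201936215 to 201938145, where 2 members share a locus. The first had 23.2 RPKM in dek37 (294 reads) and 669 RPKM in WT (8048 reads), a factor of 28.8 in favour of WT (counting interval 24.5 to 34.2). The other had 20.1 RPKM in dek37 and 571 RPKM in WT, with a difference of -4.76 beside -4.79. No other entry within 100 kb reached 10 RPKM. These entries share a locus and may share reads, so they are not separate observations of the decrease.

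Members that share a locus had close differences, but such entries may share reads and are not separate observations. There were 5 such pairs, and within a pair the differences were 0.02 to 0.09 apart, while pairs ranged from -4.79 to 0.28. The pair farthest apart was at chromosome 4, 236879357 to 236883899, where 1 entry had 615 RPKM in dek37 and 537 RPKM in WT and the other 543 RPKM in dek37 and 446 RPKM in WT. Beyond these pairs, 64 entries outside the class lay on member loci, of which 36 reached 10 RPKM. Their difference was within 0.5 of the member's for 29 of the 36 (median gap 0.16), and its sign was the same for 26 of the 36. The largest gap, 2.25, was at chromosome 5, 214122497 to 214132628, where the member had 124 RPKM in dek37 and 407 RPKM in WT while another entry had 28.2 RPKM in dek37 and 19.1 RPKM in WT. At this locus the abundant entry was lower in the mutant and the minor entry higher.

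In all, 58 members (22.1%) lay on loci with more than 1 entry, close to the 24.99% of all tested entries. Of these 58, 12 were at least 2-fold lower in dek37 (20.7%), against 16 of the 205 members alone at their locus (7.80%). The corresponding shares over all tested entries were 3.06% and 3.08%. After rescaling, 17 of the 58 members (29.3%) and 31 of the 205 (15.1%) were at least 2-fold lower. The 12 include both entries of 2 loci, and how reads that fit several entries were counted is not stated in the sources used here.

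Closely spaced members were few. Only 1 stretch held at least 3 member loci with gaps of at most 100 kb, at chromosome 5, 163897285 to 163986394 (89.1 kb), and all 3 of its members were lower in dek37. They had 327, 187 and 260 RPKM in dek37 against 488, 351 and 404 RPKM in WT, in order of position. The log2 differences were -0.58, -0.91 and -0.63, and none of them reached 2-fold as deposited. After rescaling they were -0.98, -1.31 and -1.04, so that 2 of the 3 were at least 2-fold lower. Another 13 pairs of neighbouring member loci lay within 100 kb.

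The span of the locus, which took no part in the selection, went along with the spread of the differences. Spans ran from 204 to 191581 bp with quartiles at 1663, 2758 and 4150 bp, and 21 of the 28 members at least 2-fold lower had spans below the median. In the shortest quartile the median difference was -0.19, and 15 of 66 members (22.7%) were at least 2-fold lower. In the other quartiles, from shorter to longer, the medians were 0.19, 0.31 and -0.03, with 6 of 65, 2 of 66 and 5 of 66 members at least 2-fold lower. After rescaling the 4 counts of lower members were 22, 11, 5 and 10. Members at least 2-fold higher were also most frequent among the shortest loci, with 6 of 66 (9.09%) as deposited, against 2, 3 and 2 in the other quartiles, so short loci spread in both directions. Short loci of lower WT level showed a similar order: below 1663 bp, 16.7% of 216 entries of 100 to 300 RPKM and 8.16% of 2561 entries of 10 to 100 RPKM were at least 2-fold lower. Above 4150 bp those shares were 3.46% of 318 and 0.955% of 5758. The 2-fold higher shares of the same classes were 9.72% and 11.1% below 1663 bp, and 4.40% and 4.88% above 4150 bp. From 1663 to below 2758 bp they were 8.46% and 12.4%. At 10 to 100 RPKM the shortest loci thus did not have the highest share. Span includes introns, so it is not the length of the transcript.

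**Figure D4:**
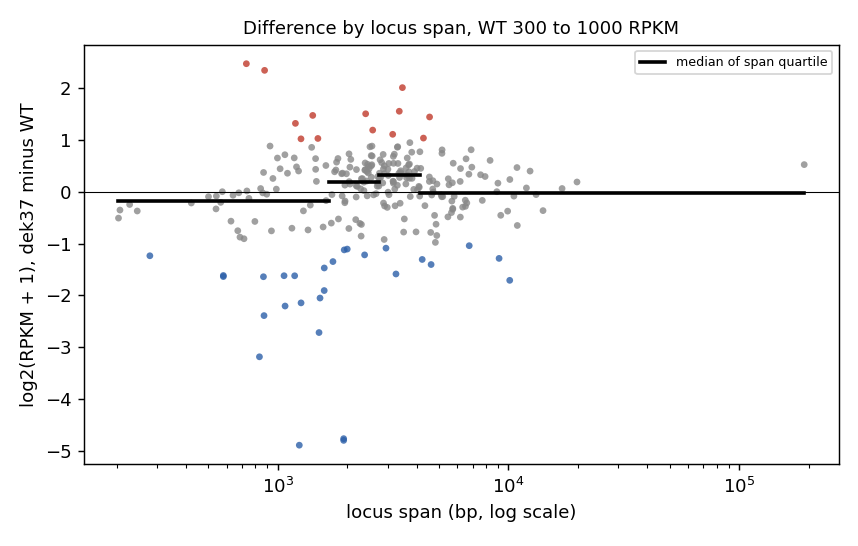
Log2(RPKM + 1) difference, dek37 minus WT as deposited (vertical axis), against locus span in bp (horizontal axis, log scale) for the 263 members, 1 point per entry, with red and blue for at least 2-fold higher and lower. Black bars are the medians of the span quartiles, -0.19, 0.19, 0.31 and -0.03 from short to long; most of the blue points lie to the left of 2758 bp.

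By chromosome, the members' median differences lay between -0.12 (chromosome 10, 10 members) and 0.20 (chromosome 4, 19 members). As deposited, none of the 41 members on chromosome 1 was at least 2-fold lower, whereas 5 of 19 on chromosome 4 and 5 of 20 on chromosome 9 were, beside 2.64%, 3.12% and 3.57% of all tested entries there. That contrast depended on the scaling, since after rescaling 7 of 41 members on chromosome 1 (17.1%) were at least 2-fold lower, with 5 of 19 and 5 of 20 as before. The chromosome 4 count includes 2 pairs of entries on shared loci, and the chromosome 9 count includes the 2 neighbouring loci described above. All 263 members lay on the 10 chromosomes, with none among the organelle entries or those of unknown position.

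At this depth counting error was small beside the differences of the extreme members. The smallest read numbers that fit were 68 to 49236 in dek37 (median 3978) and 338 to 28622 in WT (median 3574). The exact 95% counting interval of the ratio lay above 1 for 139 of the 263 members (52.9%), against 52.7% of all tested entries, and below 1 for 92 members (35.0%), against 9.81%. It lay above the median ratio of 1.32 for 55 members (20.9%), against 25% of all tested entries, and below it for 171 (65.0%), against 26.4%. Members had more reads than other entries, the medians over all tested entries being 368 in dek37 and 254 in WT, so their intervals were narrower. The intervals allow for counting error alone, and without molecular identifiers 2 reads may stem from 1 molecule. They say nothing of the variation between kernels or plants.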

How the data were processed

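The authors deposited RPKM values for 1 endosperm library per genotype, per the file headers. The submitters' processing notes list Bowtie 0.12.2; for the build, annotation, counting program and handling of reads with several matches, nothing is stated in the sources used here. RNA was column-cleaned and DNase-treated, per the labels' protocols. The genes behind the entries were not named, because the gene table at hand is for 1 assembly and the files name none, and no sequence was used. The members, classes and comparisons were chosen with earlier results of these data known.

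Differences are log2(RPKM + 1), dek37 minus WT. Rescaled values divide dek37 by the median ratio of entries that reached 10 RPKM in the higher library. No count model or p-value was used. Deposited starts were read as counted from 0. Library totals came from the commonest product of RPKM and span. Reads were the smallest numbers, 1 or even, that a length of 30 to 25000 bases makes whole in both libraries to a relative 1e-09, found for all 263 members and all 17017 tested entries. Ratios carry exact Clopper-Pearson 95% intervals on fragments of 2 reads. Single entries named by position were the 2 largest increases and decreases, members sharing a locus, and groups of at least 3 member loci with gaps of at most 100 kb; the chromosome 2 entry, the chromosome 9 neighbour, the chromosome 5 locus with the largest gap and the split by span quartiles were chosen after values were seen. Calculations were tested on simulated data and used Python 3.11.15, pandas 2.3.3 and SciPy 1.17.1.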

Additional observations from a re-analysis of the deposited data

How the results depend on the processing

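No paired analysis was possible because there is no second library of either genotype, and for the same reason none could be left out. Pseudocounts of 0.1 and 5 kept both medians and all 2-fold counts near the reported values. Baseline floors of 1 and 50 RPKM did so for the rescaled ones. With 1 entry per locus, keeping the entry with the highest mean of both libraries, 252 members remained. That is fewer than the 258 member loci, because at some loci the kept entry lies outside the class. Both medians and the counts of higher members stayed near. The count of lower members then went from 28, on 26 loci, to 23 (9.13%) as deposited and from 48 to 43 (17.1%) rescaled. The trimmed mean of M values turned the deposited median of 0.12 to -0.28, with 7 members higher and 48 lower. Setting the totals equal without the top 50 entries turned that median to -0.18, with 8 higher and 42 lower. Choosing on the dek37 level gave a deposited median of 0.43 with 58 higher, and a rescaled median of 0.025, opposite in sign to -0.28, with 32 higher and 29 lower. Choosing on the geometric mean gave 0.28 with 21 higher and 18 lower as deposited, and -0.13 with 11 higher and 31 lower rescaled. Bounds of 250 and 1200 RPKM took in 365 members, with 18 higher (4.93%) and 33 lower (9.04%) as deposited and 9 higher (2.47%) and 63 lower (17.3%) rescaled. Bounds of 400 and 800 RPKM left 143 members, with 8 higher and 14 lower as deposited and 24 lower rescaled. With no baseline floor the rescaled median was -0.13. A 1.5-fold threshold gave 41 higher and 48 lower as deposited, and 13 and 83 rescaled; a 4-fold threshold gave 3 and 9, and 1 and 16. The wider and narrower bounds and other thresholds change counts by construction; for the other shifts the cause was not tested.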
